A study of Mus musculus with 6 samples.

Results

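The 10 genes described here encode transcription factors that act at the center of the blood stem cell program, and their transcripts were compared between OgaVav-Cre and wildtype LSK cells. They are Tal1, Lyl1, Lmo2, Gata2, Runx1, Erg and Fli1, often named together as a group of 7, with Myb, Gfi1 and Etv6. Each was found by its symbol among the 53445 loci of the deposited table, where every symbol occurred once, and all 10 were among the 22032 loci that passed the filter on low counts. RNA-Seq was carried out on LSK cells (Lin-Sca+Kit+), the bone marrow fraction that holds stem cells and early multipotent progenitors. The cells were sorted from 3 OgaVav-Cre and 3 wildtype C57BL/6 females of about 12 weeks, 1 library per mouse. OgaVav-Cre mice carry Oga fl/fl together with a Vav-iCre transgene, in which Vav1 regulatory DNA drives Cre, so that Oga is deleted in the blood lineage. Whether the wildtype mice carried the floxed allele is not given in the sources used here. Oga encodes the enzyme that removes O-GlcNAc, a single sugar attached to nuclear and cytoplasmic proteins, many transcription factors among them. The comparison asks whether the loss of Oga changed transcripts for stem cell maintenance, a question raised for Tal1 and Lyl1 by earlier microarrays of Oga-/- fibroblasts.

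TAL1 and LYL1 are basic helix-loop-helix proteins that pair with E proteins on DNA. LMO2 binds no DNA itself but bridges TAL1 or LYL1 to GATA factors, in complexes that also hold LDB1. RUNX1 binds with its partner CBFB, and ERG, FLI1 and ETV6 belong to the ETS family. In blood stem and progenitor cells these factors occupy many of the same enhancers, including enhancers of each other's genes, while MYB and GFI1 are required for progenitor expansion and for restraint of cell division, respectively.

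The counts per library summed to between 19318056 and 27064389, and a floor of 3 reads corresponded to between 0.111 and 0.155 counts scaled to library size (CPM). Unless another unit is named, levels below are CPM scaled by edgeR's TMM method. Mgea5, the former symbol of Oga, had 3164, 2970 and 2736 reads in wildtype replicates 1 to 3 against 104, 109 and 110 in OgaVav-Cre replicates 1 to 3, which left 3.09% of the wildtype level. All 9 LSK markers examined were detected in every library, with Kit between 251 and 602 CPM. Ly6a, the gene of the Sca-1 antigen used in the sort, was at 48.5, 122 and 42.3 CPM in wildtype replicates 1 to 3. In OgaVav-Cre replicates 1 to 3 it was at 218, 114 and 100.3 CPM. Its log2 fold change, OgaVav-Cre over wildtype, was 1.03 with overlapping genotypes (adjusted p = 0.483 by edgeR). Of the 9 markers, 5 had a log2 fold change above 0 and 4 below. Markers of other blood cells were also present and differed between libraries. The summed level of 8 B cell markers was 838, 243 and 867 CPM in wildtype replicates 1 to 3 against 338, 259 and 1255 CPM in OgaVav-Cre replicates 1 to 3. In the last of these, 6 of the 8 markers were at their highest, and none was at 0 in any library. OgaVav-Cre replicate 3 also had the highest summed level of erythroid, granulocyte and monocyte, T and NK cell, megakaryocyte and stromal markers and the lowest summed level of LSK markers, 1035 CPM against 1293 to 2021 CPM in the other libraries. The 8 plasma cell markers differed from this, with their highest sum, 11306 CPM, in OgaVav-Cre replicate 1 and their lowest, 1593 CPM, in OgaVav-Cre replicate 3. In such bulk samples, fewer cells of a type and less RNA per cell cannot be told apart.

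The DNA before the start sites of these genes is shown for those on which the results turn. Myb and Runx1 had separate genotypes, and Tal1 and Etv6 shared the order of libraries described below. RefSeq promoter entries (GRCm38.p6) were found for 8 of the 10 genes, all but Lmo2 and Fli1, with 14 start sites in all. The 250 bases upstream of each start were located in mm9, the build of the deposited table, by their single exact match, and the positions below are mm9 positions. Capitals mark the motifs searched on both strands, namely the E-box CANNTG, the RUNX motif TGTGGT, the MYB motif AACNG and the GFI1 motif AATCNC. The GATA motif was searched as AGATAA, and with equal weight in its common variant spelled TGATAA. The ETS motif was searched as AGGAAG, and with equal weight in its common variant spelled CGGAAG.
Myb, chr10:20880791-20881040, minus strand: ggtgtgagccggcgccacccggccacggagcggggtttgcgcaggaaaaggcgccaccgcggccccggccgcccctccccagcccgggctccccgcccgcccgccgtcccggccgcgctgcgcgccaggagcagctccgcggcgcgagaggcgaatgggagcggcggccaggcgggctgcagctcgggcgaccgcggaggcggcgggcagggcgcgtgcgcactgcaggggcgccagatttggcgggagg
Runx1 distal start, chr16:92826320-92826569, minus strand: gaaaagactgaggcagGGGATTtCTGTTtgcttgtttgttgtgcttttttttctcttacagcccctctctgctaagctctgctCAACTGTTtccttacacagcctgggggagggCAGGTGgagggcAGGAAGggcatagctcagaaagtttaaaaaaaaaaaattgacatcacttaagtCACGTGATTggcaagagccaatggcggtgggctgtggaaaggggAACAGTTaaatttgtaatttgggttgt
Runx1 proximal start, chr16:92697575-92697824, minus strand: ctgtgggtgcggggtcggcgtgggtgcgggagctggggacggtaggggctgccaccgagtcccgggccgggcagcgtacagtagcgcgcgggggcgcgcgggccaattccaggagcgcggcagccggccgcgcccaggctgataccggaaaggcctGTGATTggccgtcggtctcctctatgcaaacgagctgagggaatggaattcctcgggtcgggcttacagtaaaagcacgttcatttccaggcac
Tal1 upstream start, chr4:114728781-114729030, plus strand: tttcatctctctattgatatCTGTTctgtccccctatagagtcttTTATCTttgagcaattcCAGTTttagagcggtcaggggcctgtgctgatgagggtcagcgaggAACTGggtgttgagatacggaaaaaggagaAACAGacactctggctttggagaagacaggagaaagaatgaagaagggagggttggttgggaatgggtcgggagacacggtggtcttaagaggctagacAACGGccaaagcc
Etv6, chr6:133985468-133985717, plus strand: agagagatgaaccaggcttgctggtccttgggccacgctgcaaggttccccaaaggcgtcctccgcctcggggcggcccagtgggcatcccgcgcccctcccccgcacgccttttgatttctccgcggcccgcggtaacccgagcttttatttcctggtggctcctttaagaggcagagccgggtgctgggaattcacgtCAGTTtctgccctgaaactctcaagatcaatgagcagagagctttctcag

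The Myb window was 81.2% G and C and held none of the 6 motifs. The distal Runx1 window, by contrast, was 45.6% G and C and held 3 E-boxes, 1 ETS, 5 MYB and 2 GFI1 matches, whereas the proximal window held 1 GFI1 match. Several of these matches overlap, since the E-box CAACTG contains the MYB letters AACTG and the E-box CACGTG runs into a GFI1 match. The upstream Tal1 window held 1 GATA and 5 MYB matches, and the Etv6 window 1 MYB match. Over the 14 windows, E-box letters were found in 5, GATA in 2, RUNX in 0, ETS in 4, MYB in 9 and GFI1 in 3. Among 32851 promoter windows of the same length in the RefSeq table the shares were, in the same order, 66.2, 16.6, 14.0, 39.2, 74.2 and 29.4%. Such matches describe the letters and do not show that a factor binds there. The counts cover whole loci, so the distal and proximal products of Runx1 were not separated.

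All 10 genes were well expressed in LSK cells. Levels between genes are compared per length with the deposited RPKM, given as the mean ± SD of the 6 libraries. Lmo2 was highest at 85.9 ± 22.9 RPKM, followed by Lyl1 at 53.8 ± 3.60, Myb at 45.1 ± 8.23 and Etv6 at 44.9 ± 7.34. Erg at 31.8 ± 5.18 and Fli1 at 27.4 ± 2.90 came next, and Tal1 at 15.1 ± 4.35, Gata2 at 13.6 ± 3.32, Runx1 at 10.6 ± 1.40 and Gfi1 at 8.05 ± 1.51 were lowest. The ranges of neighbors in this order overlapped, except between Fli1 (lowest library 23.1 RPKM) and Tal1 (highest library 21.2 RPKM), which were apart. Lmo2 nevertheless exceeded Lyl1 in 6 of 6 libraries, and Etv6 exceeded Erg in 6 of 6, while Myb exceeded Etv6 in 3 of 6. Among all loci tested, the 10 genes lay between percentiles 71.3 and 97.3 of RPKM. This order depends on the length given to each locus. The table gives Myb 8839 bases where the GENCODE vM1 transcripts cover 3777, and with the GENCODE length Myb took the second place at 105.6 ± 19.3 RPKM behind Lmo2 at 141.9 ± 37.9 RPKM, and Gata2 at 23.9 ± 5.81 passed Tal1 at 20.2 ± 5.83.

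**Figure D1:**
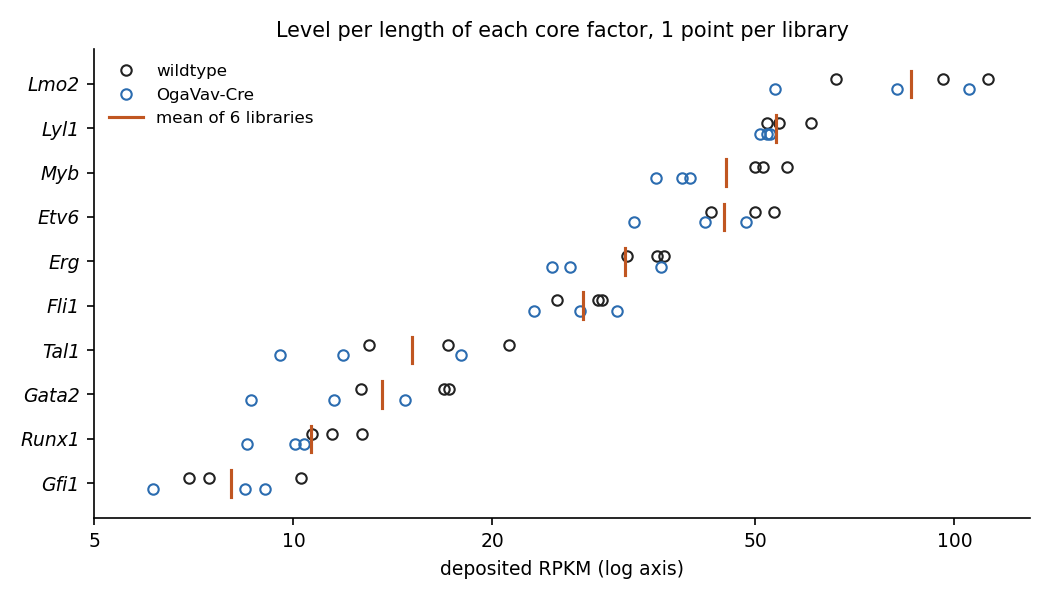
Deposited RPKM of each core factor on a log axis, with 1 open circle per library (black wildtype, blue OgaVav-Cre) and an orange bar at the mean of 6 libraries. The genes run from Lmo2 at 85.9 to Gfi1 at 8.05 RPKM, the 6 upper genes lie above 21.2 RPKM in every library, and for Myb and Runx1 all blue circles lie to the left of all black ones.

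Among the listed relatives, which leave out the 10 genes themselves, those of Tal1, Lmo2, Gata2 and Myb were less abundant than these factors. Tal2, the listed relative of Tal1, had between 0 and 6 reads per library. Lyl1, a basic helix-loop-helix gene like Tal1 and itself 1 of the 10, was more abundant than Tal1, at 53.8 against 15.1 RPKM. The LIM-only genes Lmo4 and Lmo1 stood at 6.52 ± 0.785 and 1.69 ± 0.485 RPKM against 85.9 for Lmo2. Gata1 and Gata3, which serve erythroid and T cell development, stood at 2.78 ± 1.01 and 2.57 ± 0.554 RPKM against 13.6 for Gata2. Mybl2 and Mybl1 stood at 3.34 ± 0.932 and 1.20 ± 0.391 RPKM against 45.1 for Myb. In the RUNX, GFI and ETS families some relatives were as abundant as the factors or more so. Runx3 at 15.0 ± 2.29 RPKM and Runx2 at 11.3 ± 4.13 RPKM were as high as Runx1, and Gfi1b at 9.45 ± 2.39 RPKM as high as Gfi1, with ranges that overlapped in each of these pairs. These comparisons rest on the deposited RPKM. With the GENCODE length Runx1 was at 16.5 ± 2.17 RPKM, and the relatives were not recomputed. The ETS gene Elf1 at 55.9 ± 5.89 RPKM had a higher mean than Etv6, Erg and Fli1. Spib at 27.8 ± 27.8, Spi1 at 20.4 ± 1.73 and Ets1 at 20.2 ± 13.6 RPKM came next among the other ETS genes on the list, and the rest had means from 0 to 18.1 RPKM. Of the direct binding partners, Cbfb stood at 55.5 ± 6.67, Ldb1 at 39.5 ± 6.58 and the E protein gene Tcf3 at 29.3 ± 5.71 RPKM.

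Between genotypes, none of the 10 genes was called changed. The call required a log2 fold change beyond 1 and an adjusted p below 0.05 (edgeR's quasi-likelihood test, adjusted after Benjamini and Hochberg), which 7 of 22032 loci (0.0318%) passed. DESeq2 and limma-voom also called 0 of the 10 genes. Myb was the 1 gene of the 10 with an unadjusted p below 0.05 by edgeR, against 10.6% of all loci tested. Its level in OgaVav-Cre cells was 76.2% of the wildtype level with separate genotypes, but its adjusted p was 0.416. Runx1 was the other gene whose genotypes did not overlap, at 87.0% of the wildtype level, and 17.5% of all loci tested had such separation. Lyl1, Fli1 and Gfi1 had nearly equal means in both genotypes. The fold changes of the other 5 were below 0 with overlapping genotypes.

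In OgaVav-Cre replicates 1 to 3, Myb (minus strand, chr10:20844736-20880790 in mm9), required for the expansion of definitive blood progenitors, was at 428, 405 and 353 CPM. In wildtype replicates 1 to 3 it was at 550.1, 509 and 497 CPM. Every OgaVav-Cre library was thus below every wildtype library, with means of 395 ± 38.1 and 519 ± 27.9 CPM (SD, n = 3). The log2 fold change was -0.39 (standard error 0.132, 95% interval -0.70 to -0.09, unadjusted p = 0.0185, adjusted p = 0.416 by edgeR). The unadjusted p stayed below 0.05 with 5 of the 6 libraries left out in turn and rose to 0.0568 without OgaVav-Cre replicate 3, where the log2 fold change was -0.31. A transcript on the opposite strand, AK138601, lies inside Myb at chr10:20864900-20874180 and had a difference of the same sign. Its reads numbered 943, 742 and 935 in wildtype replicates 1 to 3 against 646, 782 and 670 in OgaVav-Cre replicates 1 to 3. After scaling, its genotypes did not overlap either, with a log2 fold change of -0.54 (unadjusted p = 0.00528, adjusted p = 0.396 by edgeR). The use of strand in the counting is not given in the sources used here, so reads of Myb and AK138601 cannot be told apart where they share sequence.

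Runx1 (minus strand, chr16:92601711-92826319 in mm9), needed for the first formation of blood stem cells, was at 172, 149 and 151 CPM in wildtype replicates 1 to 3 and at 129, 139.9 and 142 CPM in OgaVav-Cre replicates 1 to 3. The highest OgaVav-Cre library was below the lowest wildtype library by a small margin. The log2 fold change was -0.20 (standard error 0.118, 95% interval -0.47 to 0.07, adjusted p = 0.560 by edgeR). Leaving out 1 library at a time gave values from -0.23 to -0.13. Cbfb, the partner of RUNX1, was at 205, 155 and 165 CPM in wildtype replicates 1 to 3 and at 197, 187 and 208 CPM in OgaVav-Cre replicates 1 to 3, and these overlapped. Runx3 had the opposite sign, at 88.9, 64.5 and 86.0 CPM in wildtype replicates 1 to 3 and at 97.6, 98.1 and 103 CPM in OgaVav-Cre replicates 1 to 3. All its OgaVav-Cre libraries were above its wildtype libraries (log2 fold change 0.32, standard error 0.144, adjusted p = 0.487 by edgeR), and whether Runx1 and Runx3 differed from each other in this change was not tested.

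Of the genes whose products assemble around LMO2, Tal1 (plus strand, chr4:114729031-114744360 in mm9) varied most. It was at 85.3, 144 and 110.1 CPM in wildtype replicates 1 to 3 and at 87.2, 121 and 63.4 CPM in OgaVav-Cre replicates 1 to 3. The libraries spread 2.26-fold from lowest to highest, the spread was as wide within a genotype as between genotypes, and the log2 fold change was -0.32 (standard error 0.268, 95% interval -0.94 to 0.30, adjusted p = 0.674 by edgeR). The log2 fold change of Tal1 was -0.12 without OgaVav-Cre replicate 3, -0.11 without wildtype replicate 2, -0.48 without wildtype replicate 1 and -0.59 without OgaVav-Cre replicate 2. Lyl1 (plus strand, chr8:87225356-87228615 in mm9), which can stand in for TAL1 in adult stem cells, was the steadiest of the 10 genes, with a spread of 1.14-fold. It was at 109, 108 and 119.9 CPM in wildtype replicates 1 to 3 and at 117, 105 and 107 CPM in OgaVav-Cre replicates 1 to 3 (log2 fold change -0.03, standard error 0.111, 95% interval -0.29 to 0.23). In linear terms this interval runs from 0.818 to 1.17 times the wildtype level.

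Lmo2 (plus strand, chr2:103798143-103822035 in mm9), the bridging subunit, was at 265, 464 and 377 CPM in wildtype replicates 1 to 3 and at 366, 434 and 217 CPM in OgaVav-Cre replicates 1 to 3. Its genotypes overlapped widely (log2 fold change -0.12, standard error 0.291, 95% interval -0.80 to 0.55), and its sign turned to 0.12 without OgaVav-Cre replicate 3 and to 0.08 without wildtype replicate 2. Gata2 (plus strand, chr6:88143885-88157026 in mm9), which maintains the stem cell pool, was at 84.7, 99.6 and 57.4 CPM in OgaVav-Cre replicates 1 to 3. In wildtype replicates 1 to 3 it was at 83.1, 117 and 109 CPM, so that wildtype replicate 1 lay within the OgaVav-Cre range. The log2 fold change of Gata2 was -0.35 (standard error 0.220, 95% interval -0.86 to 0.16, adjusted p = 0.580 by edgeR), and it was -0.16 without OgaVav-Cre replicate 3 and -0.53 without OgaVav-Cre replicate 2.

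Of the 3 ETS factors, Erg (minus strand, chr16:95580776-95808200 in mm9) was at 125, 142 and 139 CPM in wildtype replicates 1 to 3 and at 114, 144 and 97.1 CPM in OgaVav-Cre replicates 1 to 3 (log2 fold change -0.19, standard error 0.163, 95% interval -0.57 to 0.19). Its highest library was an OgaVav-Cre library, and its log2 fold change was -0.06 without OgaVav-Cre replicate 3 and -0.36 without OgaVav-Cre replicate 2. Fli1 (minus strand, chr9:32229793-32348982 in mm9), its close relative, was at 96.5, 115 and 111 CPM in wildtype replicates 1 to 3 and at 99.9, 108 and 121 CPM in OgaVav-Cre replicates 1 to 3 (log2 fold change 0.03, standard error 0.128, 95% interval -0.27 to 0.32). Etv6 (plus strand, chr6:133985718-134220176 in mm9), an ETS repressor needed for stem cells to persist in adult marrow, was at 288, 371 and 329.9 CPM in wildtype replicates 1 to 3 and at 316, 335 and 223 CPM in OgaVav-Cre replicates 1 to 3 (log2 fold change -0.18, standard error 0.186, 95% interval -0.61 to 0.25). For Etv6 it was -0.01 without OgaVav-Cre replicate 3, -0.08 without wildtype replicate 2 and -0.29 without OgaVav-Cre replicate 2. Gfi1 (minus strand, chr5:108145674-108155056 in mm9), a zinc finger repressor, was lowest, at 27.2, 41.6 and 28.6 CPM in wildtype replicates 1 to 3 and at 37.1, 36.4 and 24.3 CPM in OgaVav-Cre replicates 1 to 3. Its log2 fold change was 0.01 (standard error 0.229, 95% interval -0.53 to 0.54), with a sign that turned in 9 of the 19 other fits. The adjusted p by edgeR was 0.679 for Erg, 0.952 for Fli1, 0.744 for Etv6, 0.899 for Lmo2, 0.933 for Lyl1 and 0.993 for Gfi1.

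**Figure D2:**
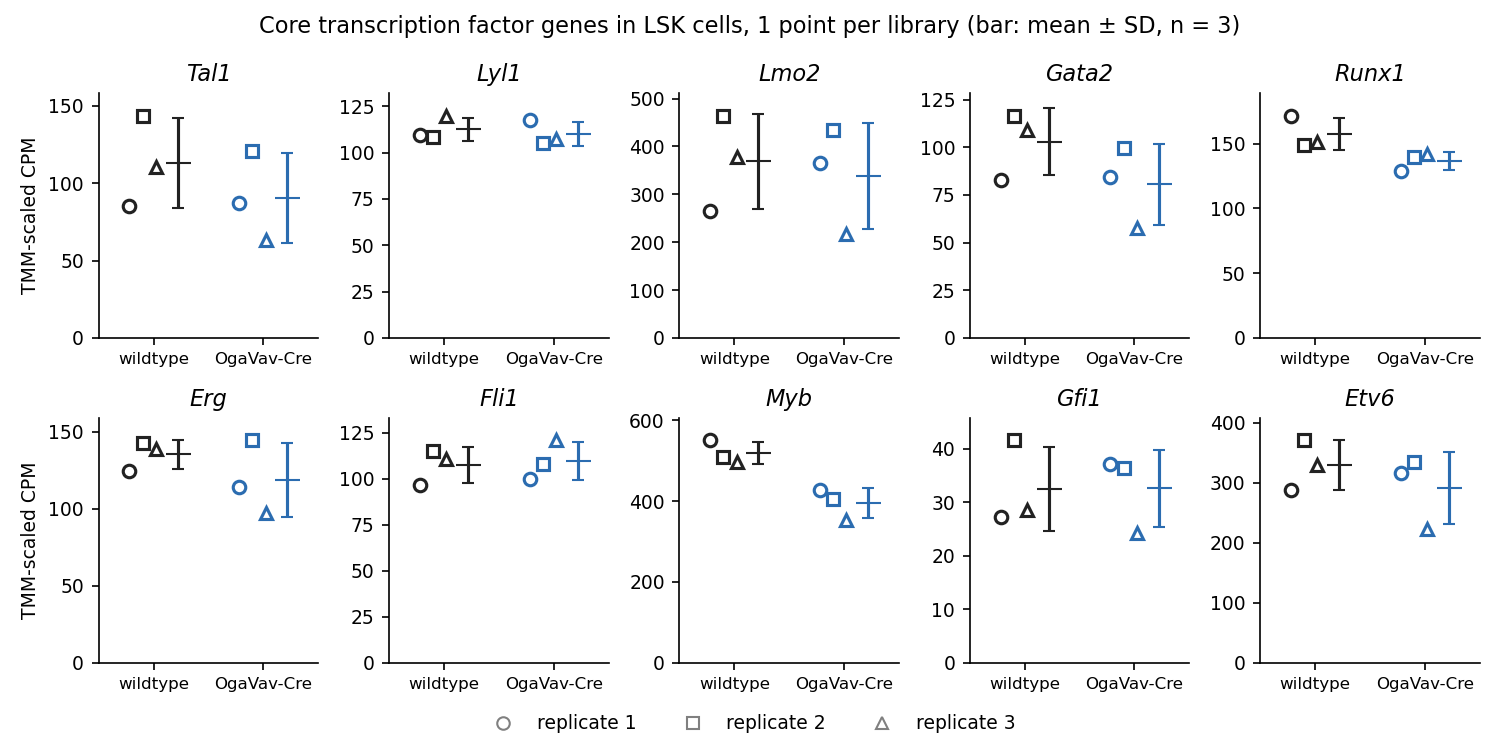
TMM-scaled CPM of each core factor from 0 upward, with 1 symbol per library (circle, square and triangle for replicates 1 to 3; black wildtype, blue OgaVav-Cre) and the mean ± SD of 3 libraries beside them. Myb and Runx1 are the panels in which the genotypes do not overlap, and the blue triangle, OgaVav-Cre replicate 3, is the lowest point in 7 of the 10 panels.

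Read against all loci, these counts were as follows. Of the 22032 loci tested, 2346 (10.6%) had an unadjusted p below 0.05, 1381 of them (6.27% of all) lower in OgaVav-Cre, against Myb as 1 of 10 genes here. The genotypes did not overlap for 3850 loci (17.5%), of which 2197 (9.97% of all) were lower in OgaVav-Cre, against 2 of 10 here, Runx1 and Myb. Both counts lie near these background shares, and nothing particular to the 10 genes is read from them. Without OgaVav-Cre replicate 3, 33.8% of loci had separate genotypes, and of the 10 genes Runx1 and Myb alone did. At unchanged scaling, leaving out a library cannot make separate genotypes overlap, so that the separation of these genes remained is no check of it. In the same fit 0 of the 10 had an unadjusted p below 0.05 in edgeR, against 14.3% of loci. The log2 fold change was below 0 for 8 of the 10 genes (10 in limma-trend fits of the RPKM, where the signs of Fli1 and Gfi1 turned) and for 49.5% of all loci, with a median of -0.18 over the genes and 0.0041 over all loci. Over the fits without 1 library the median of the genes ran from -0.32 without OgaVav-Cre replicate 2 to -0.05 without OgaVav-Cre replicate 3, and it was -0.09 without wildtype replicate 2. No 95% interval of the 10 genes reached a log2 fold change of -1 or 1, the lowest bound being -0.94 for Tal1 and the highest 0.55 for Lmo2. With 3 libraries against 3, an exact two-sided permutation test of 1 gene cannot give a p below 0.1.

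**Figure D3:**
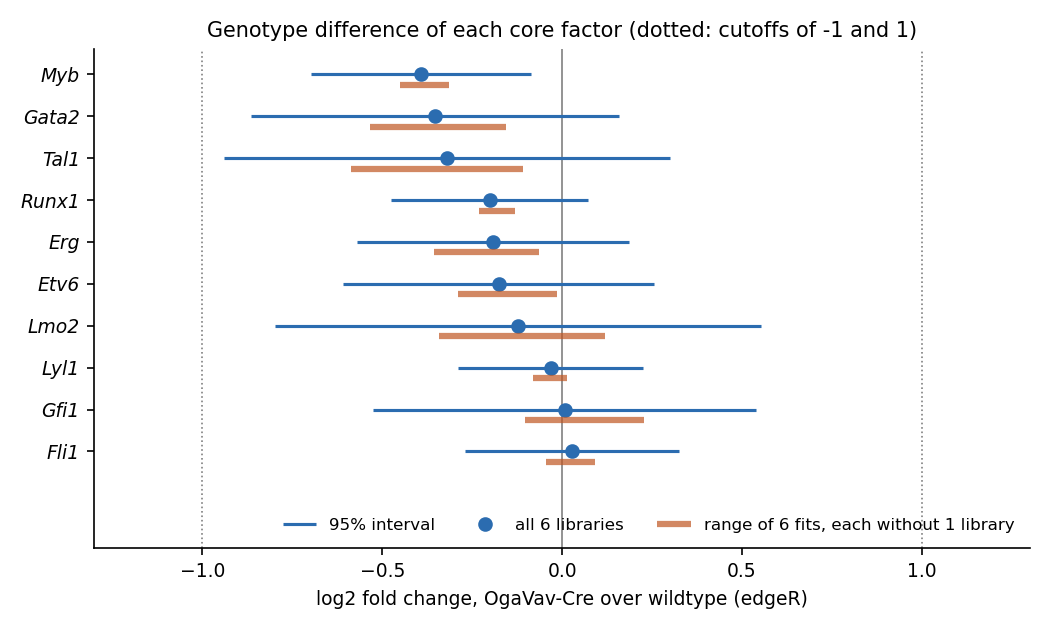
log2 fold change of each core factor, OgaVav-Cre over wildtype, from edgeR (blue point) with its 95% interval (blue line) and the range over 6 fits that each left out 1 library (orange bar). The Myb interval, from -0.70 to -0.09, is the one that does not include 0, and the orange bars of Lmo2, Lyl1, Gfi1 and Fli1 cross 0.

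Several of the genes shared an order of the libraries, which is taken from the values of Tal1, so that Tal1 has it by definition. Tal1, Lmo2 and Etv6 ranked the 6 libraries in exactly the same way, from wildtype replicate 2 through OgaVav-Cre replicate 2, wildtype replicate 3, OgaVav-Cre replicate 1 and wildtype replicate 1 down to OgaVav-Cre replicate 3. Of all 22032 loci, 107 (0.486%) had this order, Tal1 included. Gata2 differed from it by 1 exchange of neighbors, wildtype replicate 3 with OgaVav-Cre replicate 2. The stem cell regulators Meis1, Hlf and Mecom and the surface receptors Kit and Cd27, which were chosen after their values were seen, also had this order. They were 3 of 20 other stem cell regulators and 2 of 9 LSK markers, and Kit was the 1 of 17 known target genes. None of 18 complex partners (0) and none of 24 family relatives (0) had it. Hlf, a stem cell factor with a large range, was at 262, 622 and 442 CPM in wildtype replicates 1 to 3 and at 340, 465 and 166 CPM in OgaVav-Cre replicates 1 to 3, and Kit at 372, 602 and 498 CPM and at 433, 542 and 251 CPM, respectively.

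OgaVav-Cre replicate 3 was the lowest of the 6 libraries for 7 of the 10 genes (Tal1, Lmo2, Gata2, Erg, Myb, Gfi1 and Etv6), against 3941 of 22032 loci (17.9%). The same library had the highest summed level of B cell markers, 1255 CPM, and the 2 libraries with the lowest summed levels, wildtype replicate 2 at 243 CPM and OgaVav-Cre replicate 2 at 259 CPM, were the highest for Tal1, Lmo2 and Etv6. The erythroid and the T and NK cell sums were also lowest in these 2 libraries, but other marker sums were not. The granulocyte and monocyte sum was 1157 CPM in wildtype replicate 2 and 341 CPM in wildtype replicate 1. The plasma cell sum was 7730 CPM in wildtype replicate 2 and lowest, at 1593 CPM, in OgaVav-Cre replicate 3. The part of these other cells in the levels of the 10 genes was not tested. Fli1, Lyl1 and Runx1 were not lowest in OgaVav-Cre replicate 3, and Fli1 was highest there. With the B cell marker level as a covariate, an alternative chosen after seeing the data, 0 of the 10 genes were called, and Tal1 (unadjusted p = 0.0206) and Gata2 (unadjusted p = 0.0149) joined Myb below an unadjusted p of 0.05, as did 2995 of 22032 loci in that edgeR fit.

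**Figure D4:**
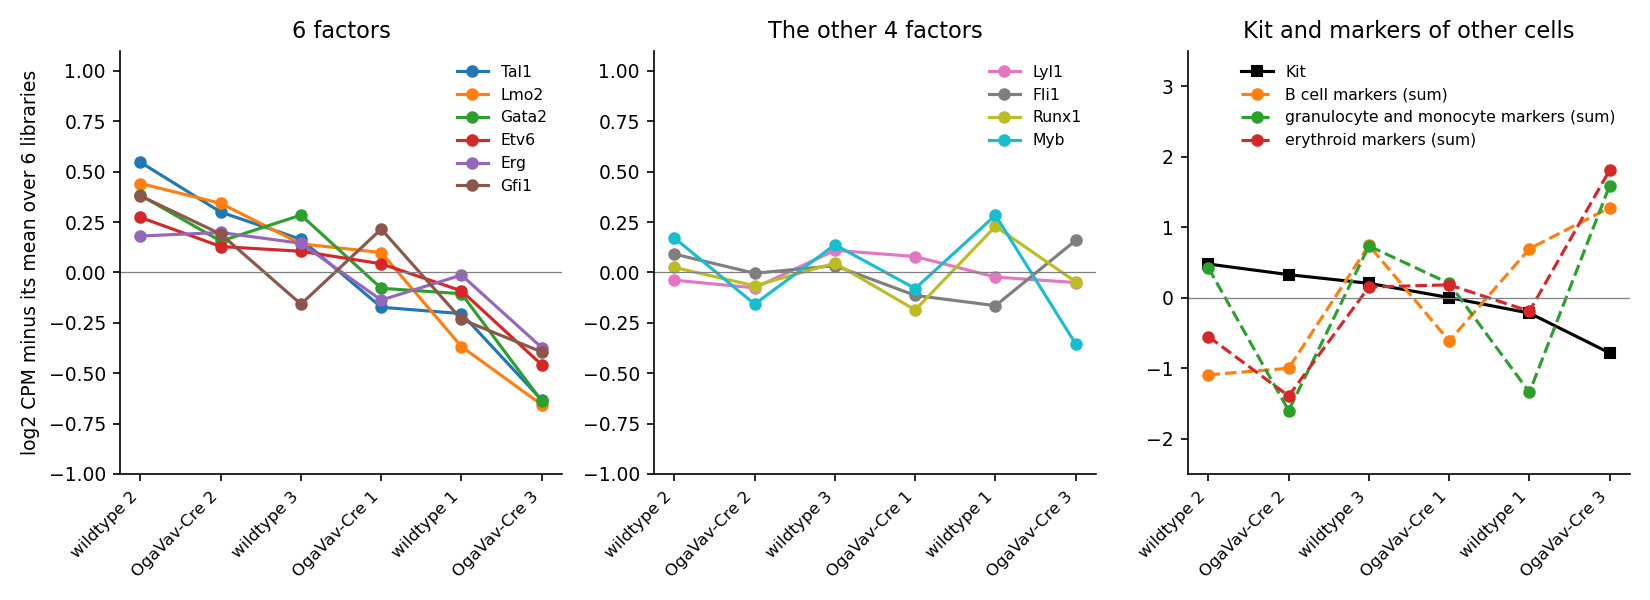
log2 CPM of each gene, or of the summed markers, minus its own mean over 6 libraries, with the libraries placed from left to right in the order of Tal1. In the left panel Tal1, Lmo2 and Etv6 fall step by step to OgaVav-Cre replicate 3 and Gata2, Erg and Gfi1 also end there at their lowest, in the middle panel Lyl1, Fli1 and Runx1 do not, and in the right panel, on a wider axis, Kit falls while the summed B cell, granulocyte and monocyte, and erythroid markers are highest in that library.

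Transcripts of the proteins that work with these factors showed no called change. Of 18 complex partners, 0 were called, 1 had an unadjusted p below 0.05 (10.6% of all loci tested), and the median log2 fold change was -0.05. Separate genotypes were found for 1 of the 18, against 17.5% of all loci tested. Neither count is read as a result about the partners. Ssbp4, which protects LDB1 from degradation, was at 20.9, 17.8 and 22.5 CPM in wildtype replicates 1 to 3 and at 30.9, 27.5 and 22.4 CPM in OgaVav-Cre replicates 1 to 3 (log2 fold change 0.40, unadjusted p = 0.0499, adjusted p = 0.469 by edgeR), with OgaVav-Cre replicate 3 within the wildtype range. Crebbp, a histone acetyltransferase that binds MYB and GATA factors, was the partner with separate genotypes, at 92.5, 84.0 and 100.3 CPM in wildtype replicates 1 to 3 and at 64.7, 76.9 and 82.7 CPM in OgaVav-Cre replicates 1 to 3 (log2 fold change -0.30, standard error 0.134, adjusted p = 0.483 by edgeR). Cbfa2t3, a corepressor found in TAL1 complexes, had a log2 fold change of -0.22 with overlapping genotypes. The ID proteins, which withhold E proteins from DNA, were measured by 4 genes, of which 3 were tested, with 0 called and 0 at an unadjusted p below 0.05. Their log2 fold changes were -0.81 for Id1, -0.14 for Id3 and -0.06 for Id2, with standard errors of 0.467, 0.752 and 0.482.

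Among 24 relatives of the factors, 21 were tested, 0 were called and 0 had an unadjusted p below 0.05 (10.6% of all loci tested). Their median log2 fold change was 0.04. Runx3 and Ets2 were the relatives with separate genotypes, both higher in OgaVav-Cre, against 1653 of all 22032 loci in that direction and 17.5% in either. Mybl1 was at 10.1, 7.83 and 8.46 CPM in wildtype replicates 1 to 3 and at 4.52, 4.87 and 8.10 CPM in OgaVav-Cre replicates 1 to 3, with OgaVav-Cre replicate 3 inside the wildtype range (log2 fold change -0.59, standard error 0.277, adjusted p = 0.492 by edgeR). For Gata3 the log2 fold change was 0.35 (standard error 0.189). Ets1 and Spib, ETS genes of lymphoid cells chosen after their values were seen, were highest in OgaVav-Cre replicate 3 at 398 and 254 CPM, against 85.4 to 242 and 25.4 to 120.3 CPM in the other libraries, where the B cell markers were highest too.

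Of 20 other regulators of blood stem cells, 0 were called, and the median log2 fold change was -0.08. Mllt3 and Hoxa9 had log2 fold changes of -0.33 and -0.39 (standard errors 0.215 and 0.290) with overlapping genotypes.

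Known targets of the factors likewise showed no called change. Of 17 target genes, 0 were called, 0 had an unadjusted p below 0.05 and 0 had separate genotypes, with a median log2 fold change of -0.04. Over all loci tested, 10.6% had such a p and 17.5% had separate genotypes. Csf1r, the monocyte growth factor receptor controlled by RUNX1, was at 39.3, 28.6 and 56.0 CPM in wildtype replicates 1 to 3 and at 22.0, 15.5 and 37.5 CPM in OgaVav-Cre replicates 1 to 3 (log2 fold change -0.72, standard error 0.356, adjusted p = 0.508 by edgeR). Bcl2, a survival gene controlled by MYB, was at a log2 fold change of 0.26 (standard error 0.152) with overlapping genotypes.

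**Figure D5:**
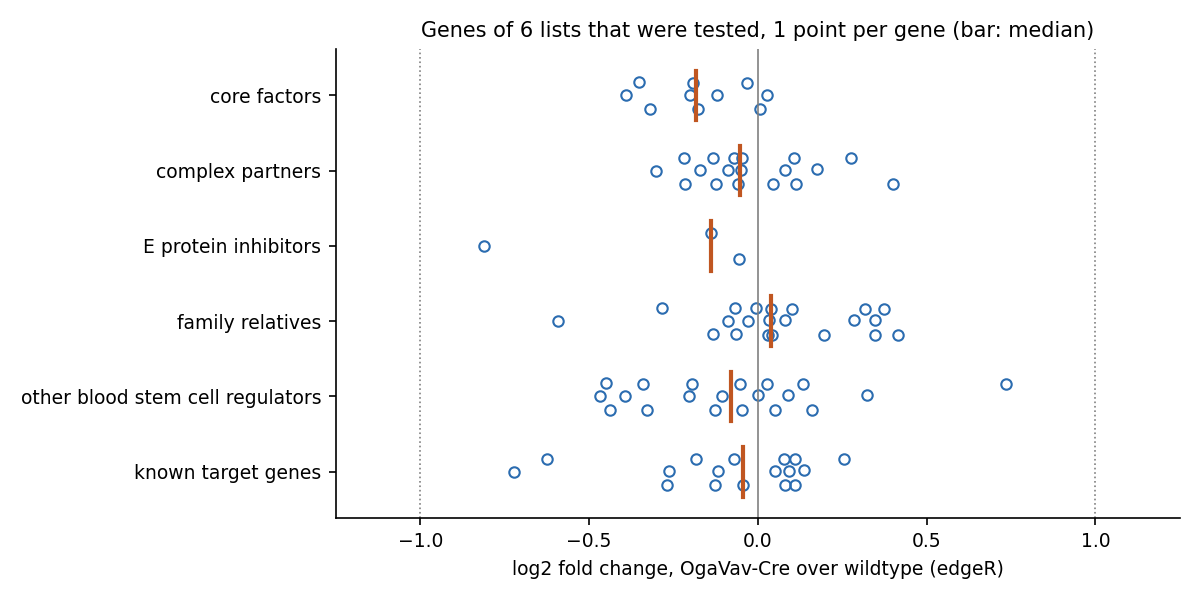
log2 fold change, OgaVav-Cre over wildtype, of the tested genes of 6 lists, with 1 open circle per gene spread vertically for legibility and an orange bar at each median. All circles lie between the dotted lines at -1 and 1, and the medians run from -0.18 for the core factors to 0.04 for the family relatives.

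Other loci of the table lie within or across 8 of the 10 genes, and Tal1 and Gata2 have none. The largest by reads is Nfix, on the opposite strand around Lyl1, with 74.7% as many reads as Lyl1 itself, although by GENCODE only 4 of the 1800 exonic bases of Lyl1 are shared with it. AK138601 had 7.51% as many reads as Myb. At Lmo2, Erg and Gfi1, 1 such locus each had 1.55, 4.30 and 4.66% as many reads as the gene, and at Runx1, Fli1 and Etv6, with 6, 6 and 12 loci, no single locus exceeded 4.26%. Within Fli1, the reads of AK086848 numbered 4, 3 and 0 in wildtype replicates 1 to 3 against 12, 17 and 22 in OgaVav-Cre replicates 1 to 3, where the genotypes did not overlap (unadjusted p = 0.0161, adjusted p = 0.412 by edgeR). AK086848 had 0.382% as many reads as Fli1, and Fli1 itself did not have separate genotypes.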

How the data were processed

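LSK cells of 3 OgaVav-Cre and 3 wildtype mice were grouped by the genotype in their labels. Per the paper's methods and the labels, the authors made poly(A) libraries with the NEBNext Ultra RNA kit, sequenced 50 bp from 1 end of each fragment, and used Genomatix to align reads to mm9 and to count them at each locus. CASAVA 1.8.2 is named in the submitters' processing notes. The aligner version, the annotation version and the use of strand are not given in the sources used here. The authors deposited raw read counts per locus, which were checked to be whole numbers, and RPKM made from these counts and the locus length. The table also holds the authors' normalized expression, fold changes and p-values, which were not used.

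The genotypes were compared over all loci with edgeR 4.0.16 in R 4.3.3 (TMM, filterByExpr, glmQLFit and glmQLFTest at their defaults), and p-values were adjusted over the 22032 loci tested. The standard errors and 95% intervals come from the same fit. The libraries are separate mice, and p-values measure the spread between them. No pair of replicates agreed within counting noise. The methods describe no molecular identifiers, so the floor of 3 reads covers counting error alone. The 10 genes and all lists were chosen with earlier results of these data known. From each list beyond the 10 genes, up to 3 genes with the smallest unadjusted p were named, together with loci that overlap a member, and any further gene was picked once its values had been seen. Lists are described by counts and medians, without a set test. Some genes of these lists are counted but not reported here by name.

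Alternatives were RLE size factors, no filter, a minimum of 10 reads per library, DESeq2 1.42.0 (Wald test, plain or shrunken), limma-voom and limma-trend on log2 of the deposited RPKM plus a pseudocount of 0.1 or 1 (limma 3.58.1), a block for the replicate number, the removal of 1 library at a time, the immunoglobulin share of the counts as a covariate, immunoglobulin loci left out, and a robust dispersion. The B cell marker level as a covariate and the GENCODE vM1 length for RPKM were added after seeing the data. The scripts were tested on simulated data. Promoter sequence is RefSeq's (GRCm38.p6), matched to mm9 by sequence. Python 3.11.15, pandas 2.3.3, numpy 2.4.6 and matplotlib 3.10.9 were used for tables and figures.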

Additional observations from a re-analysis of the deposited data

How the results depend on the processing

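None of the 10 genes was called in any of the 19 other fits. The number of all loci called was 7 by edgeR, 21 without a filter, 4 with at least 10 reads in every library, 116 by DESeq2, 66 by DESeq2 with shrunken fold changes, 4 with RPKM and a pseudocount of 1, 21 with the B cell marker covariate and 3 to 9 with a library left out. The number of the 10 genes with an unadjusted p below 0.05 was 1, 3 with the B cell marker covariate and 0 to 2 with a library left out, the second gene being Erg without OgaVav-Cre replicate 2. Myb kept its direction in all 19 fits and its unadjusted p stayed below 0.05 in 18 of them. The sign of 4 genes near 0 turned. Over the 6 fits that each leave out a library, log2 fold changes ranged from -0.0796 to 0.0150 for Lyl1, from -0.34 to 0.12 for Lmo2, from -0.0461 to 0.0903 for Fli1 and from -0.10 to 0.23 for Gfi1. With RPKM and a pseudocount of 0.1 or 1, Fli1 was at -0.0411 and -0.0396 and Gfi1 at -0.0604 and -0.0542, where the median of all loci was -0.06 and -0.04. Gfi1 was also at -0.00022 with at least 10 reads in every library, -0.15 with the immunoglobulin covariate and -0.0907 with the B cell marker covariate. The cause was not tested. All 10 genes were below 0 in the RPKM fits and without wildtype replicate 1, and 7 without wildtype replicate 2. With the replicate number as a block, 6 loci were called and 0 of the 10 genes, and Myb had a log2 fold change of -0.39 (edgeR, adjusted p = 0.351). The sources used here do not say whether equal numbers pair mice. Deviations of same-numbered libraries correlated at -0.089, 0.331 and 0.415 for replicates 1 to 3. OgaVav-Cre replicates 2 and 3 each correlated best with the wildtype library of the same number, while OgaVav-Cre replicate 1 correlated best with wildtype replicate 2, at 0.285. These values do not settle whether the numbers mark related libraries. Each gene had at least 580 reads in every library. What set the width of the intervals was not tested.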
